A study of Piaractus mesopotamicus and Piaractus mesopotamicus x Colossoma macropomum and Colossoma macropomum with 15 samples.

Results

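miR-138 was counted at 4 of the 595 mature miRNA loci of the count table, all those whose zebrafish name is dre-miR-138 followed by a hyphen or a point, which leaves out the unrelated number miR-1388. They carry 3 mature names, dre-miR-138-5p with 2 counted copies (360 and 354 counts over all fish), dre-miR-138-3p (11 counts) and dre-miR-138-2-3p (0 counts), written below without the prefix for zebrafish. Counts were present at 3 of the 4 loci, and 2 of them, both copies of miR-138-5p, were among the 199 loci abundant enough to be tested, which had a mean normalized count of at least 10 over all fish. The loci were taken by name, but miR-138 was singled out for its low count and for its level in the hybrid against the parents in these same fish. The contrasts of the hybrid are therefore given as a description, with no p. Where called loci are counted for them, the cutoffs are those of the study, but the main fit is edgeR, whereas the study used DESeq2. These counts describe the fits and are not read as a test.

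The groups were the hybrid tambacu (TC), bred from tambaqui females and pacu males, and its parental species pacu, Piaractus mesopotamicus (PC), and tambaqui, Colossoma macropomum (TQ). All were untreated early juveniles of about the same body weight, and 5 fish of each genotype gave 1 small RNA library each from fast muscle of the epaxial region. Fish keep the numbers of their labels, which are 3, 4, 5, 6 and 8 in TC, 3, 4, 5, 8 and 10 in PC, and 1, 2, 3, 6 and 8 in TQ. No source used here gives the families or tanks behind the fish, and all reads were set against zebrafish precursors, so that pacu and tambaqui sequences were not used here.

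A miRNA is cut from a hairpin precursor, whose 5′ and 3′ arms can each give a mature strand. The strand that is kept guides a silencing complex to mRNAs, mainly by pairing of its seed, bases 2 to 8 counted from its 5′ end. miR-138 is best known as a brain-enriched miRNA of mammals, and in rat neurons it limits the size of dendritic spines. In zebrafish embryos it takes part in patterning of the heart, where the gene for the matrix protein versican is among its targets. No mRNA was measured in these fish, so none of its targets can be described.

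Sequences were at hand for 2 of the 3 names, both on the zebrafish precursor dre-mir-138 of miRBase, and they are printed to show the letters on which reads were counted and how both arms sit in 1 hairpin. The mature strands have their seeds in capitals.
miR-138-5p: aGCTGGTGttgtgaatcaggcc
miR-138-3p: gCTATTTCacaacaccagggt
dre-mir-138: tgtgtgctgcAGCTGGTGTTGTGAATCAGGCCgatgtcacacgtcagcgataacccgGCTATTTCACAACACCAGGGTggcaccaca
In the precursor line the capitals mark both mature strands. The mature strand miR-138-5p, 22 bases long, takes positions 11 to 32 of the 87 bases, and miR-138-3p, 21 bases long, takes positions 58 to 78, each on the plus strand with 100% identity. The arms are 25 bases apart. The predicted fold had a minimum free energy of −43.4 kcal/mol, with 16 base pairs between the arms and 6 of the 7 seed bases of the 5p arm paired. Among 346 precursors, dre-mir-138 alone held either mature strand letter for letter. The sequences of miR-138-2-3p and of the precursor that carries the second copy were not used here.

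The seed of miR-138-5p, GCTGGTG, was shared by 0 other loci among the 550 loci (345 mature names) whose sequences were at hand, and so was the seed of miR-138-3p, CTATTTC. Bases 2 to 7 of miR-138-5p recur in 2 mature names, miR-133a-5p and miR-133a-2-5p, minor strands of a muscle miRNA.
miR-133a-5p: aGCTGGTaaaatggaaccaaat
miR-133a-2-5p: aGCTGGTaaaatggaaccaaa
Here capitals mark the shared bases 2 to 7, after which the letters part from those of miR-138-5p. Both names had 0 counts at every copy in the 15 fish, so among the names searched no other counted miRNA shared these bases. Reads were counted by alignment to precursors and not by seed, and these zeros are not read as absence from muscle.

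miR-138-5p was rare in fast muscle. Its first copy had 360 counts over the 15 fish, 0.000603% of the 59707366 counts of the table. By mean normalized count, the count divided by the size factor of the fish, it stood at 23.3. That was rank 139 among the first copies of 369 mature names, of which 212 had any count, and rank 183 of the 199 tested loci. The second copy stood at 23.0, whereas miR-138-3p stood at 0.884, too low to be tested. The nearest tested loci in level were miR-155 at 18.2 and miR-26a-2-3p at 18.7 below it, and miR-181a-3-3p at 23.4 and miR-193a-3p at 25.0 above it. Of these names miR-155 is known from leukocytes, and the miR-181 family from lymphocytes and myogenesis.

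The depth behind these values differed between fish. Total counts per fish were 2422820 to 5669084 in TC (median 4763971), 2918058 to 5089685 in PC (median 4769153) and 2448658 to 4143529 in TQ (median 2858311). TC fish 8 had the lowest total of all. These totals are sums over the loci of the table, copies included, and not reads sequenced. By the reads that the study lists after size filtering, TC fish 8 was not the lowest. Levels are given in CPM, the count scaled to the library size as set by the trimmed mean of M-values (TMM), whose factors were 0.621 to 1.43. A locus with 0 counts in a fish may still have reached the level of 3 counts, which was 0.463 CPM in the deepest scaled library and 1.33 CPM in the shallowest. Within genotypes, the counts of any 2 fish (30 pairs) were much farther apart than sampling noise, with chi-square values of 93.2 to 4541 times their degrees of freedom. No 2 of them were thus repeat counts of 1 library. Whether the fish are independent cannot be seen from these values. The label of muscle was set against known miRNAs of striated muscle, of which miR-1 had 44351 counts and miR-206-3p 9671. These do not tell fast from slow muscle. The slow muscle miR-499-5p had 25446 counts, and the label of fast muscle was not tested. Of the 10 names of the striated muscle list, 5 had 0 counts, among them miR-133a-3p and miR-133b-3p. Of the endothelial miR-126, 8 loci had 0 counts in all. For such zeros, absence from the tissue and a strand missed by counting on zebrafish precursors cannot be told apart.

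In the hybrid, 4 of the 5 fish were close together at the lowest levels of the series, and 1 fish was high. The first copy of miR-138-5p had 13, 13, 19, 12 and 21 counts in TC fish 3, 4, 5, 6 and 8. It had 16, 42, 53, 30 and 23 counts in PC fish 3, 4, 5, 8 and 10, and 23, 44, 20, 16 and 15 counts in TQ fish 1, 2, 3, 6 and 8. Scaled to library size, the level was 3.26, 2.79, 3.34, 3.16 and 9.32 CPM in TC, in the same order of fish. It was 4.39, 6.49, 9.04, 9.49 and 8.23 CPM in PC, and 8.23, 8.30, 6.44, 6.40 and 3.66 CPM in TQ. TC fish 3, 4, 5 and 6 were thus below every PC fish and every TQ fish, whereas TC fish 8 was above every TQ fish and above 4 of the 5 PC fish, 14th of the 15 fish from the lowest.

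**Figure D1:**
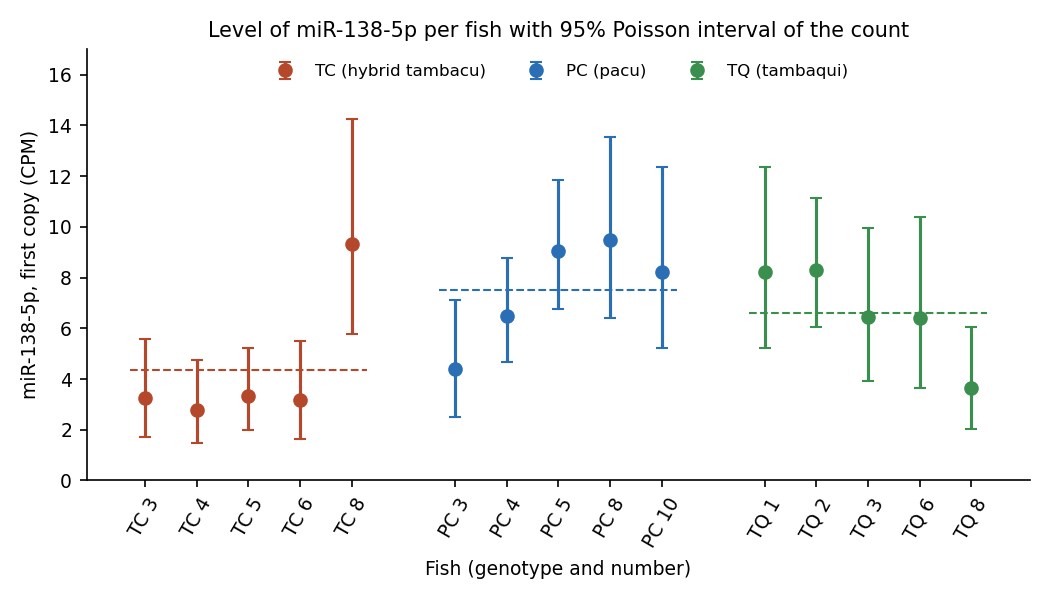
Level of the first copy of miR-138-5p in each fish, in CPM on the vertical axis, with fish grouped by genotype on the horizontal axis. Bars are 95% Poisson intervals of the count and dashed lines are means of 5 fish. TC fish 3 to 6 sit at 2.79 to 3.34 CPM, under all parental fish, and TC fish 8 sits at 9.32 CPM.

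The counting error of a single fish was wide at these counts. By exact 95% Poisson intervals, the 13 counts of TC fish 4 stood for 1.48 to 4.77 CPM and the 21 counts of TC fish 8 for 5.77 to 14.2 CPM, which do not overlap. The interval of TC fish 8 lay above those of TC fish 3 (1.73 to 5.57 CPM), 5 (2.01 to 5.21 CPM) and 6 (1.63 to 5.51 CPM) as well. By contrast, the intervals of TC fish 3 to 6 overlapped those of the lowest PC fish, PC fish 3 (2.51 to 7.13 CPM), and of the lowest TQ fish, TQ fish 8 (2.05 to 6.04 CPM). The order of single low fish across genotypes is therefore not settled at this depth. PCR copies of a molecule were not told apart, so these intervals hold for counting error alone.

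TC fish 8 was apart from the other TC fish under each of 3 scalings of the libraries, but its place among the parental fish moved. Levels per fish were not worked out for a further library size, the size-filtered reads of the study. Whether TC fish 8 stands apart on that scale is therefore not shown here. With totals as library sizes, the level in CPM was 2.42, 2.73, 3.35, 2.62 and 8.67 in TC fish 3, 4, 5, 6 and 8. On this scale PC had 3.76, 8.81, 10.8, 5.89 and 7.88, and TQ had 8.89, 10.6, 6.82, 6.53 and 5.25. By totals TC fish 8 was 11th of the 15 fish from the lowest, above 3 of the 5 PC fish and 3 of the 5 TQ fish. By the size factors of DESeq2 it was 13th, above 3 PC fish and every TQ fish. The 4 low TC fish remained under every parental fish by total counts and by the size factors of DESeq2 alike. Their order against the parental fish by size-filtered reads is not given here. PC fish 8, the highest fish by CPM at 9.49, was under PC fish 4, 5 and 10 by total counts, at 5.89 CPM.

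**Figure D2:**
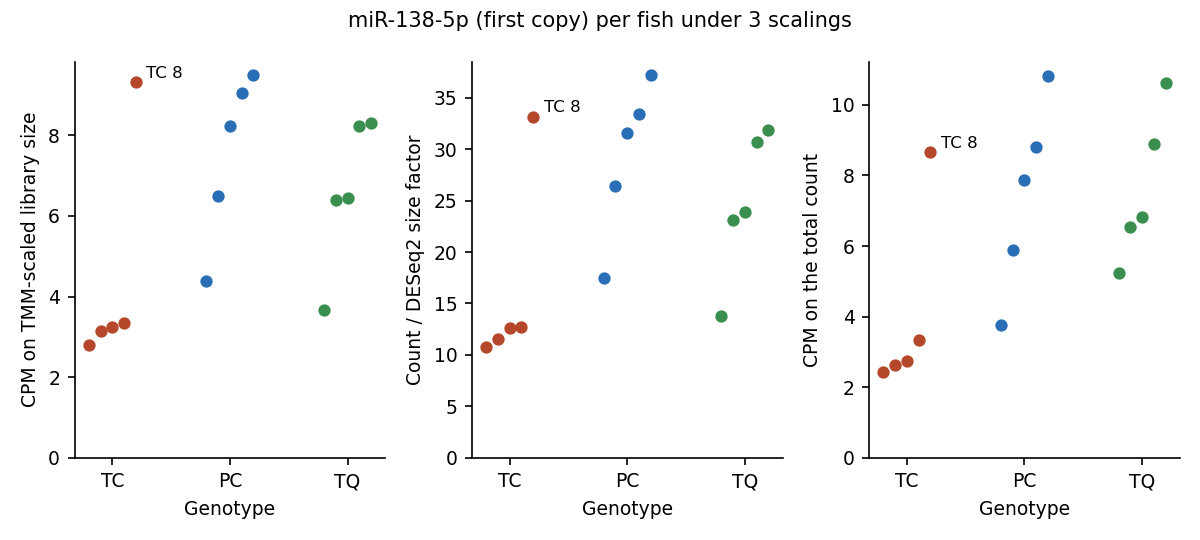
The first copy of miR-138-5p in each fish under 3 scalings, as CPM on the TMM-scaled library size, as count divided by the DESeq2 size factor, and as CPM on the total count, each on a vertical axis from 0. Points are fish, sorted within TC, PC and TQ; under each scaling 4 TC points lie lowest and TC fish 8 lies among the parental fish.

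With TMM scaling, spread between fish and counting error were of like size in the parents and far apart in the hybrid. The level averaged 4.37 ± 2.77 CPM in TC, 7.53 ± 2.09 CPM in PC and 6.61 ± 1.89 CPM in TQ (SD, n = 5 each). As a coefficient of variation (CV) this was 63.4% in TC, 27.8% in PC and 28.6% in TQ, where counting alone would give 27.0%, 18.5% and 21.4% in the same order. Counting error made up 18.1% of the variance in TC, 44.2% in PC and 56.4% in TQ. A separate measure, the index of dispersion, is the chi-square of the counts against 1 common level over its degrees of freedom, near 1 where counting is the sole source of spread. It was 5.06 in TC, 2.33 in PC and 2.20 in TQ. With total counts as library sizes the index was 5.65 in TC, 4.51 in PC and 1.94 in TQ, so PC was then close to TC. It was not worked out for the size-filtered reads of the study. The values with TMM scaling rest on single fish. Leaving out TC fish 8 gave 0.0906 in TC. Leaving out PC fish 3 gave 1.16 in PC, and leaving out TQ fish 8 gave 0.504 in TQ. Without TC fish 8 the mean of TC was 3.13 ± 0.242 CPM (SD, n = 4), a CV of 7.73% where counting alone would give 26.8%, so that the 4 fish lay closer together than counting error spreads them on average.

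Among miRNAs as rare as this one, the spread of miR-138-5p pooled over genotypes lay within the range of the others. The biological CV of edgeR, the spread between fish of a genotype beyond counting error, was 0.307 for the first copy and 0.333 for the second. The 24 tested loci with a mean normalized count of 10 to 30, which include both copies, had a median of 0.300. They ranged from 0.196 to 0.511, and 11 of them were above the first copy and 6 above the second. Over all 199 tested loci the median was 0.242. The neighbour miR-26a-2-3p had the lowest value of that band, 0.196. Such values of edgeR are shared by all genotypes and drawn toward loci of like level, so they do not show the spread within TC. There the SD was 2.77 CPM for the first copy, against 0.729 to 1.38 CPM for the nearest tested loci.

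**Figure D3:**
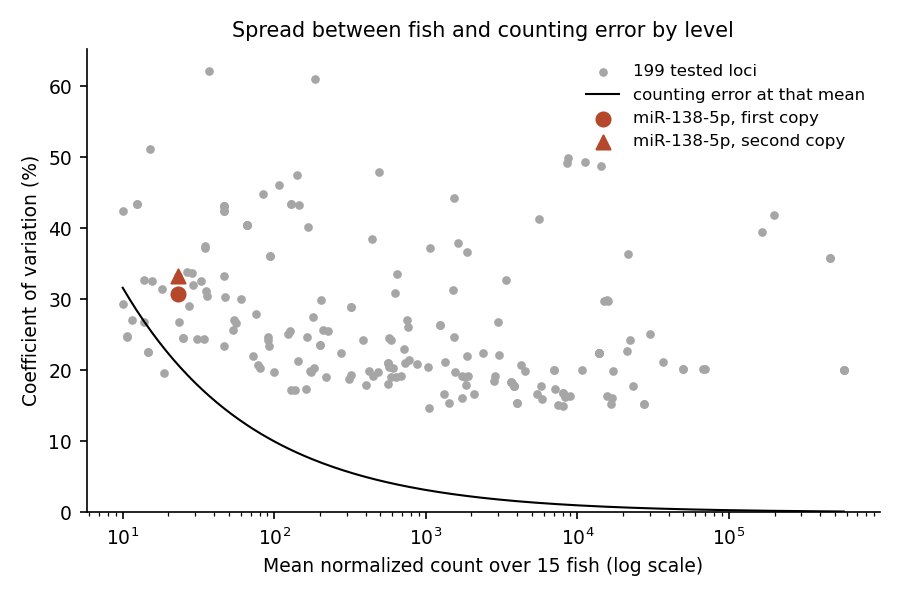
Biological CV between fish of a genotype, in percent on the vertical axis, against the mean normalized count on a log horizontal axis for 199 tested loci (grey), with both copies of miR-138-5p marked. The line is the CV that counting alone gives at each mean. The copies, at 0.307 and 0.333 as fractions, lie among the other loci of their level, where the line is close to the points.

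The first question of the study was how the hybrid compares with each parent. For the first copy of miR-138-5p, the log2FC was −0.86 (SE 0.34) for TC vs. PC, 0.549 times the level of PC. For TC vs. TQ it was −0.68 (SE 0.35), 0.625 times the level of TQ. Against the mean of both parents on the log2 scale it was −0.77 (SE 0.31). Counted from the most negative, these were rank 8, rank 18 and rank 3 of the 199 tested loci, while the median locus stood at 0.022, 0.029 and 0.028 in the same order. The second copy gave −0.89 (SE 0.37), −0.72 (SE 0.38) and −0.80 (SE 0.33). The contrasts with each parent share the TC fish, so that their values are not independent. Because the tissue is bulk muscle, fewer cells holding miR-138 and less miR-138 per cell cannot be told apart.

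The rule for differentially expressed (DE) loci applied the cutoffs of the study in edgeR. It asked for a log2FC of 0.75 or more in either direction together with an adjusted p (padj) of at most 0.05. By this rule 0 of the 2 tested miR-138 loci were called in TC vs. PC, where 3.52% of all tested loci were called, and 0 of 2 in TC vs. TQ, where 14.6% were called. Against the mean of the parents 0 of 2 were called, beside 3.02% of all loci. Nothing is read from these counts, since miR-138 was picked with these contrasts known. The study itself used DESeq2 and lists the first copy as lower in TC vs. PC.

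The contrasts of the hybrid turned on TC fish 8. Without it the log2FC of the first copy was −1.26 (SE 0.29) for TC vs. PC and −1.07 (SE 0.29) for TC vs. TQ. The rule then marked 2 of 2 loci in both contrasts, beside 4.55% and 13.1% of the 198 loci tested. These counts show only how the calls depend on 1 fish, since both the miRNA and the doubt about this fish came from the same values. Leaving out any other single fish gave −1.01 to −0.70 for TC vs. PC and −0.81 to −0.53 for TC vs. TQ. In these fits 0 of 2 loci were called, beside 2.03% to 5.61% of all tested loci in TC vs. PC and 8.59% to 17.3% in TC vs. TQ. The value nearest to 0 came without TC fish 4 in both contrasts. DESeq2 in place of edgeR, with all 15 fish, called the first copy but not the second in TC vs. PC, beside 8.04% of all tested loci without a log2FC prior and 7.54% with it. It called neither in TC vs. TQ, beside 17.1% and 12.6%. Against the mean of the parents, the log2FC without TC fish 8 was −1.16 (SE 0.26) and 2 of 2 loci were called, beside 4.04% of all loci. There DESeq2 with all fish called the first copy without the prior, beside 4.02%, and neither copy with it, beside 3.02%.

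**Figure D4:**
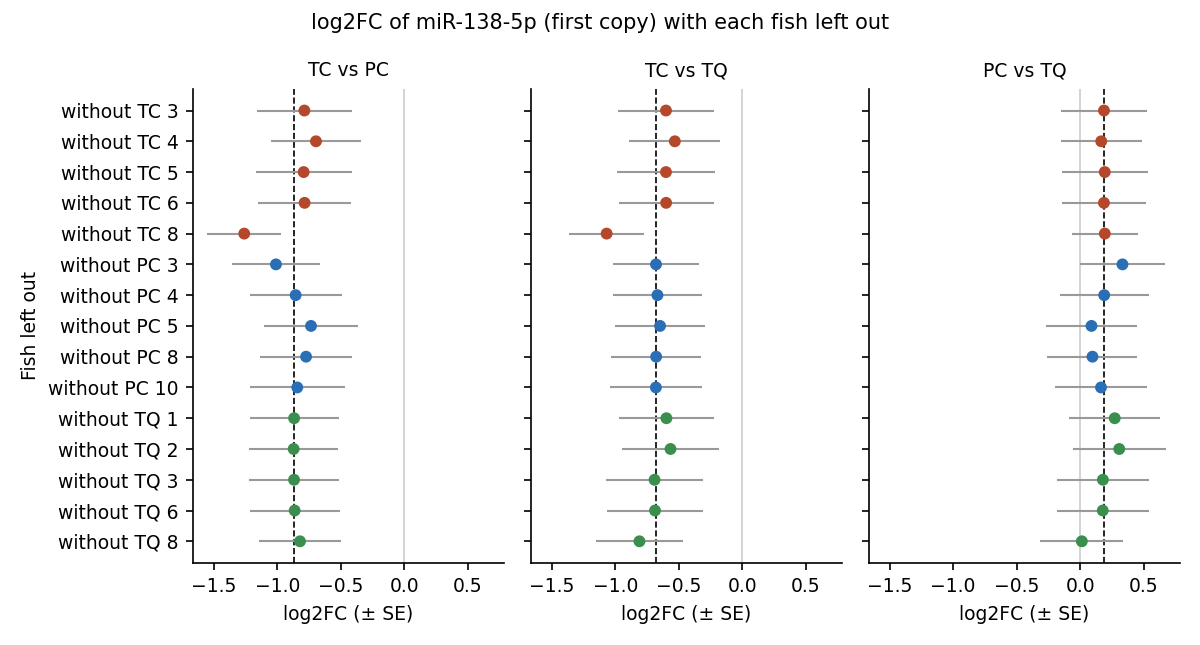
log2FC of the first copy of miR-138-5p with each fish left out in turn, 1 panel per contrast, with the log2FC and its SE on the horizontal axis and the fish left out on the vertical axis. The dashed line is the value with all 15 fish. In both TC panels the point without TC fish 8, at −1.26 and −1.07, lies farthest from 0; in PC vs. TQ all points lie between 0.012 and 0.33.

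Between the parents, miR-138-5p did not pass the test. The level was 7.53 ± 2.09 CPM in PC and 6.61 ± 1.89 CPM in TQ (SD, n = 5 each), and the fish of both species overlapped, with 2 PC fish above every TQ fish and 0 below all of them. The log2FC of PC vs. TQ was 0.19 (SE 0.33), with a padj of 0.737 in edgeR over the 199 loci. The 95% interval of the difference ran from −0.51 to 0.88 on the log2 scale, which is 0.701 to 1.85 times the level of TQ, so that a moderate difference either way is not excluded at this depth. An exact permutation test of the CPM values, two-sided over 252 arrangements, gave p = 0.460, where the smallest p possible is 0.00794. The second copy gave a log2FC of 0.17 (SE 0.35) and a padj of 0.780. Thus 0 of 2 tested loci were called in PC vs. TQ, where 10.6% of all tested loci were. Neither copy reached an unadjusted p of 0.05 in edgeR. DESeq2 called 0 of 2 as well, beside 15.1% of all tested loci without a log2FC prior and 13.1% with it. By total counts as library sizes the sign turned, with a log2FC of −0.045.

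Summed within genotypes, the counts gave ratios close to those of the fit. TC had 78 counts of the first copy, PC had 164 and TQ had 118. Scaled by the summed library sizes, TC had 0.511 times the level of PC and 0.577 times that of TQ. PC had 1.13 times the level of TQ (95% interval 0.885 to 1.44, for counting error alone). These ratios leave out the spread between fish, which in TC was the larger part of the variance.

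Both copies of miR-138-5p gave almost the same counts. The second copy had 13, 13, 18, 9 and 22 counts in TC fish 3, 4, 5, 6 and 8, 15, 42, 51, 30 and 23 in PC fish 3, 4, 5, 8 and 10, and 23, 45, 19, 16 and 15 in TQ fish 1, 2, 3, 6 and 8. It summed to 354 counts against 360 for the first copy, a difference of 1.67%. The copies were equal in 8 fish, the first was higher in 5 and the second in 2, and the largest difference in a fish was 3 counts. Such twin counts were usual in the table. Of 40 mature names with several counted copies, 12 had identical counts in every fish, 32 differed by at most 5% in total, and 27 differed by less than miR-138-5p did. No source used here says how reads that match several places were counted, so the copies are taken as 1 measurement and not as a repeat of it.

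The 3p arm was near the limit of detection. miR-138-3p had 11 counts in all, in 8 of the 15 fish, and at most 2 in a fish. In TC it had 2 counts in fish 8 and 0 in the other 4 fish. In PC it had 2, 1, 1, 1 and 0 counts in fish 3, 4, 5, 8 and 10, and in TQ 1, 0, 1, 2 and 0 counts in fish 1, 2, 3, 6 and 8. Every one of these levels was below what 3 counts stand for in the same library, so no fold between genotypes is given. Both 3p counts of the hybrid thus came from the fish that was high in miR-138-5p, which had the fewest counts in total.

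As a share of both arms, with the first copy for the 5p arm, the 3p arm made up 2.96% of 371 counts (95% Wilson interval 1.66 to 5.23%). It was 2.50% in TC (0.688 to 8.66%, 2 of 80 counts), 2.96% in PC (1.27 to 6.74%, 5 of 169) and 3.28% in TQ (1.28 to 8.13%, 4 of 122). These intervals hold for counting error alone and leave out the spread between fish. They overlap widely, and a difference in arm use between genotypes was not detectable at this depth. The 5p arm was the major strand of miR-138, as it was in 38 of the 69 miRNAs with both arms named and at least 100 counts. In those 69 the lower arm had a median share of 0.0229%, it had 0 counts in 32, and 47 had a smaller share than miR-138. An absent arm and an arm missed by counting on zebrafish precursors cannot be told apart here. The share of miR-138 is therefore not read as high or low beside these names. miR-138-2-3p, the 3p strand named for another precursor, had 0 counts in each of the 15 fish.

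**Figure D5:**
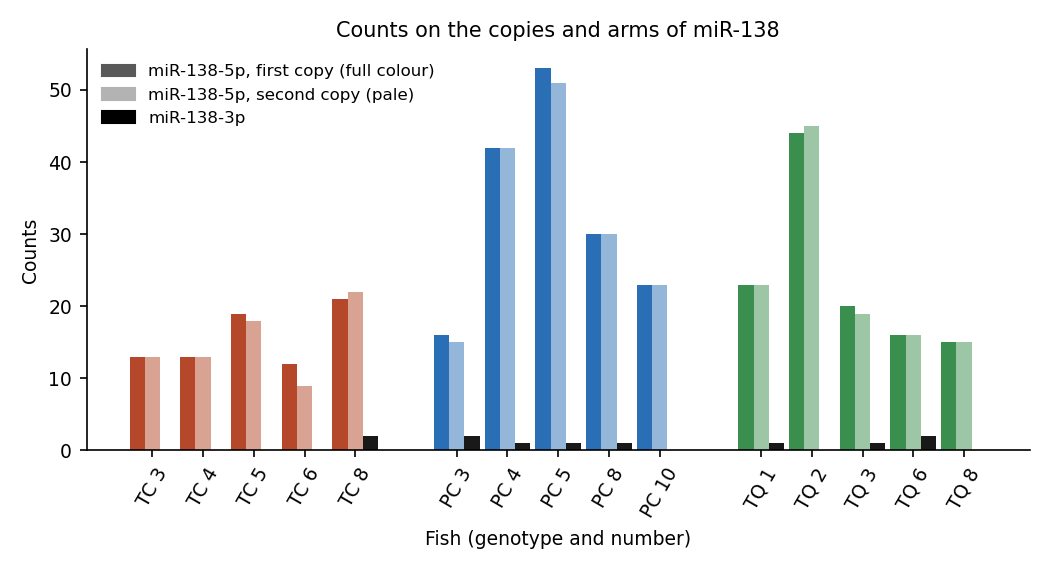
Counts in each fish of the first copy (full colour) and second copy (pale) of miR-138-5p and of miR-138-3p (black), with fish grouped as TC, PC and TQ. The bars of the copies differ by at most 3 counts, and the black bars reach at most 2 counts.

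Since miR-138 is known from brain, the other miRNAs known from neurons were set beside it. Of 27 names of the neural list, 13 had counts and 4 were tested, of which 0 were called in TC vs. PC, TC vs. TQ or PC vs. TQ, where 3.52%, 14.6% and 10.6% of all tested loci were, so that with 4 loci the count is near that background. Summed over first copies, the list stood at 779 to 1024 CPM in TC, 894 to 1269 CPM in PC and 899 to 1370 CPM in TQ. Of its counts 96.6% were miR-128-3p, which muscle also expresses, while miR-124-3p, the most typical neuronal miRNA, had 1 count and its other arm miR-124-5p had 216. A rare strand and a strand missed by counting on zebrafish precursors cannot be told apart, so miR-124 is not read as absent. miR-129-5p had 1004 counts and miR-9-3p 762. TC fish 8, high in miR-138-5p, was the lowest of all 15 fish in this list, at 779 CPM. Without miR-128 the list stood at 23.6 to 66.0 CPM in TC, 27.5 to 41.5 CPM in PC and 24.6 to 42.2 CPM in TQ. On this shorter list TC fish 8 was second highest of the 15 fish, at 51.9 CPM. It stood under TC fish 6 at 66.0 CPM, which was low in miR-138-5p. Of the sum in TC fish 8, 43.5 CPM came from miR-129-5p alone, and the other tested names were not high there. In this fish miR-9-3p had 4.44 CPM, under its means of 13.1 CPM in TC, 11.6 CPM in PC and 12.4 CPM in TQ. There miR-124-5p had 2.22 CPM, under its means in TC and PC and close to that in TQ. The part of nerve in the level of miR-138 was not tested.

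TC fish 8 also stood at an end of the series in lists of other cells. The summed striated muscle miRNAs were highest in this fish, at 1415 CPM against 841 to 1341 CPM in the other TC fish. The list averaged 1142 ± 238 CPM in TC, 893 ± 125 CPM in PC and 728 ± 83.5 CPM in TQ (SD, n = 5 each). Its tested members did not all stand out in TC fish 8. There miR-206-3p had 456 CPM, far above its mean in each genotype. By contrast, miR-1 had 954 CPM, close to its TC mean of 917 CPM, and miR-133c-5p had 1.77 CPM, under its TC mean. The erythroid miRNAs miR-144 and miR-451 summed to 14585 CPM in this fish, again the highest of all 15, against 3754 to 7268 CPM in the other TC fish. The slow muscle list, both arms of miR-499, stood at 642 CPM in it, within the 297 to 792 CPM of the other TC fish, and the leukocyte list at 837 CPM, within their 712 to 919 CPM. Over the 199 tested loci TC fish 8 was the highest of 15 fish at 26 and the lowest at 23, against 3 to 21 and 3 to 36 in the other fish. The part of these differences in the level of miR-138 was not tested.

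Of the 150 tested mature names, miR-455-3p followed the first copy of miR-138-5p most closely over the 15 fish, with a Spearman rho of 0.67. After it came miR-7147 (0.62), miR-140-5p (0.56), miR-92b-3p (0.55) and miR-199-3-3p (0.55). miR-455-3p averaged 62.8 ± 28.0 CPM in TC, 96.6 ± 29.3 CPM in PC and 96.8 ± 11.3 CPM in TQ (SD, n = 5 each), and TC fish 8 had 109 CPM where the other TC fish had 39.5 to 68.4 CPM. Its pattern thus shared the high fish of the hybrid. miR-199-3-3p, at 135 ± 9.85 CPM in TC, 236 ± 53.1 CPM in PC and 239 ± 61.0 CPM in TQ, had its lowest mean in TC without a high fish 8, which had 143 CPM. When the genotype means were taken off first, rho was 0.65 for miR-7147 and miR-140-5p, 0.47 for miR-455-3p, 0.25 for miR-92b-3p and 0.16 for miR-199-3-3p. At the other end stood miR-365 (−0.68), miR-456 (−0.64) and miR-363-3p (−0.57). These values describe 15 fish of 3 genotypes that share their library scaling, and the names were picked as the extremes of 150.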

How the data were processed

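Small RNA libraries of fast muscle came from 15 fish (5 TC, 5 PC and 5 TQ, 1 library each). A company prepared them for the authors and sequenced them for 50 cycles. The authors deposited raw counts per mature miRNA locus, made by clipping and size filtering of reads, Hisat2 alignment to the zebrafish precursors of miRBase and featureCounts on places set by GMAP. Not given in the sources used here were the versions of Hisat2 and featureCounts and how multiply matching reads were handled. A second deposited table holds a normalized signal, the count divided by 1 DESeq2 size factor per fish, which served for the filter and for mean levels. Columns not used numbered 0. Positions and sequences came from the precursor and annotation files that accompany the study.

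The 199 loci that reached a mean of 10 in that table were fitted by quasi-likelihood in edgeR 4.0.16 (limma 3.58.1, R 4.3.3), TMM scaling, all 15 fish in 1 model, and Benjamini-Hochberg adjustment over all 199. The fit was tested on simulated data. Poisson intervals were exact, shares had Wilson intervals (statsmodels 0.14.6), permutation tests were exact (scipy 1.17.1), and likeness was Spearman's rho on log2(CPM + 0.5). The fold was predicted with ViennaRNA 2.7.2. Python 3.11.15, numpy 2.4.6, pandas 2.3.3 and matplotlib 3.10.9 made tables and plots. Alternatives were DESeq2 1.42.0 with and without a log2FC prior, 3 other library sizes, 2 other filters, a fit of both genotypes alone, first copies alone, the fish number as a block, no log2FC minimum, and each fish left out. Library sizes tried instead were total counts, DESeq2 size factors and the size-filtered reads that the study lists.

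The miR-138 loci, the marker lists (neural, striated muscle, slow muscle, erythroid, leukocyte, endothelium) and the tests were chosen with earlier results of these data known. Named loci were all miR-138 loci, names sharing the seed, the 2 tested loci next above and below in level, the 5 most alike in pattern, and list members that hold most of a list or were called. Of the lists in TC vs. TQ, both miR-499 arms and miR-144-3p were called higher and miR-155 and miR-223 lower. In PC vs. TQ both miR-499 arms were called higher and miR-451, miR-150 and miR-223 lower. In TC vs. PC 0 list members were called. The 3 lowest loci in likeness, miR-206-3p, miR-133a-3p, miR-133b-3p, both arms of miR-124, miR-129-5p and miR-9-3p were named after their values were seen. Whether fish of a genotype are independent families is unknown. The p-values set a genotype difference against the spread between these fish, taken as independent. Shared families or tanks within a genotype could make them too small.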

Additional observations from a re-analysis of the deposited data

Results flagged for a closer look

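In each genotype the highest and the lowest fish of miR-138-5p (both copies) and miR-138-3p were set against the gap between fish expected among 5 samples, 9 groups in all. In 3 of them 1 fish lay farther out than chance allows in about 1 of 20 groups, and in all 3 it was TC fish 8 on the high side. It had 9.32 CPM at the first copy of miR-138-5p, with a gap to the next TC fish of 0.916 of the range, and 9.76 CPM at the second copy, with a gap of 0.880 of the range. At miR-138-3p it had 0.887 CPM, from 2 counts where the other TC fish had 0, so the gap is the whole range whatever the count. This level is below that of 3 counts in the library, 1.33 CPM, and nothing is read from it. The flags are not independent, because the loci come from 1 library and the copies have nearly equal counts. By the same rule TC fish 8 stood apart high at 4 and low at 5 of the 199 tested loci. The other fish stood apart high at 0 to 5 and low at 0 to 3, so TC fish 8 had the most on the low side. Its high loci include both copies of miR-138-5p. Its library had the lowest total over the loci of the table, 2422820 counts, though not the fewest reads after the size filtering of the study. The part of this low total in the levels was not tested.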

How the results depend on the processing

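The log2FC of the first copy of miR-138-5p kept its negative sign under all 10 alternatives of the TC vs. PC contrast (−1.07 to −0.78) and of TC vs. TQ (−1.03 to −0.40). It did so under all 9 against the mean of the parents (−1.01 to −0.62). Each moved by less than the SD between fish of a genotype, 0.51 on the log2 scale. This yardstick is loose, since it is the SD of this same locus with TC fish 8 included. It is wider than the SEs of the main fit, 0.34, 0.35 and 0.31 in the same order. With each of the 15 fish left out in turn it ranged over −1.26 to −0.70 in TC vs. PC, −1.07 to −0.53 in TC vs. TQ, −1.16 to −0.61 against the mean of the parents and 0.012 to 0.33 in PC vs. TQ. PC vs. TQ turned to −0.045 with total counts as library sizes (the cause was not tested), and its padj was 0.539 to 0.980 over all settings. In TC vs. PC, DESeq2 called 1 of the 2 tested loci, both without and with the log2FC prior, beside 8.04% and 7.54% of all tested loci. Leaving out fish gave 0 to 2 called miR-138 loci in TC vs. PC, beside 2.03% to 5.61% of all tested loci. In TC vs. TQ it gave 0 to 2, beside 8.59% to 17.3%. In both contrasts the 2 came without TC fish 8 only. In PC vs. TQ 0 miR-138 loci were called under any setting. Over the fits, 4.02% to 19.4% of all tested loci were called there with the log2FC minimum. The index of dispersion in PC was 4.51 with total counts as library sizes. Leaving out each fish, it was 0.0906 to 6.37 in TC, 1.16 to 3.07 in PC and 0.504 to 2.91 in TQ. The 3p share was 2.55% to 3.36% with each fish left out and 3.01% with the second copy.

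With the fish number as a replicate block, the log2FC was −0.85 (TC vs. PC), −0.40 (TC vs. TQ), −0.62 against the mean of the parents and 0.45 for PC vs. TQ. No call of a miR-138 locus changed, beside 0.503%, 14.6%, 2.01% and 4.52% of all tested loci called, in the same order. No label says whether the numbers pair fish across genotypes. The deviations of 9 same-numbered pairs correlated at −0.486 to 0.267, and 4 of 9 were above 0.1, which cannot decide it. Depth limits the 3p arm most, as 3 counts stand for 0.463 to 1.33 CPM, and a single fish carries 12 to 53 counts of miR-138-5p.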
